A study of Homo sapiens with 64 samples.

Results

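Sterol efflux genes and the liver X receptors that control them were described in colorectal cancer cells that had stopped or slowed dividing. The 7 genes are ABCG1, ABCA1, MYLIP, SREBF1, LPCAT3, NR1H2 and NR1H3. They were taken by symbol from the 54127 genes listed in the count data, and each symbol matched 1 Ensembl identifier. The set was selected on earlier results of these same samples, in which ABCG1 had the largest increase among genes that were higher in label-retaining cells in all 24 pairs. For these 7 genes the comparison of label-retaining with cycling cells is therefore given as a description without a test, and tests are given for unsorted control cultures and for levels between lines.

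Liver X receptors are nuclear receptors that bind oxysterols and desmosterol, pair with retinoid X receptors and switch on genes that lower the free cholesterol of a cell. NR1H3 encodes LXRα, which is prominent in liver, macrophages and intestine, and NR1H2 encodes LXRβ, which most tissues express. Their best known targets are the efflux pumps ABCA1 and ABCG1, the ubiquitin ligase MYLIP (IDOL), which sends the LDL receptor for degradation, the lipogenic factor SREBF1 and the phospholipid remodeling enzyme LPCAT3.

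RNA was sequenced from 64 samples of colorectal cancer cell lines grown as nonadherent spheroids with bFGF and EGF. For the 48 sorted samples, cells of HT55 and SW948 (subtype CCS1), RKO and SW48 (CCS2), and DLD1 and HCT15 (CCS3) carried CFSE, a dye that thins out with each division, and were sorted after 6 days. Cells that kept the dye are label-retaining cells (LRCs), the sorted bulk of cycling cells are non-LRCs, and each line gave 4 samples of each. The other 16 samples were unsorted cultures labeled DLD1, treated with CFSE or with DMSO as the unlabeled control and collected on day 1 or on a later day, 4 samples per group. The later day is day 6 in the study design and day 5 in the sample labels. Each line is a single culture line, and the sample labels number replicates without saying what a number shared.

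Reads counted on genes ran from 12237225 to 20913455 per sample, with a median of 15063858. Levels are given as CPM, counts scaled to library size and between libraries by edgeR's TMM method, with a prior count of 2 in log2 values. The 9 epithelial markers summed to 2703 to 18070 CPM in the sorted samples of 5 lines and to only 219 to 334 CPM in RKO, with KRT20, VIL1 and LGALS4 under 1 CPM in RKO and KRT20 and LGALS4 under 1 CPM in SW48 as well. Several libraries stood apart. The library labeled DMSO day 1 replicate 4 resembled the later-day DMSO libraries (mean r = 0.982 of log2 CPM) more than its own group (mean r = 0.950). The library labeled SW948 LRC replicate 4 was closer to the SW948 non-LRCs (mean r = 0.995) than to the other SW948 LRCs (mean r = 0.984). Replicate 2 of HT55 and of SW48 had its other population as nearest library (r = 0.995 and 0.987). HCT15 LRC replicate 4, HCT15 non-LRC replicate 2 and SW48 non-LRC replicates 1 and 3 were also closer by mean r to their line's other population, by 0.004 or less. Both HCT15 populations paired replicates 1 with 2 and 3 with 4 (r from 0.992 to 0.994, against 0.977 to 0.985 between the pairs), and so did both DLD1 populations with a smaller gap. The CFSE day 1 group fell into a pair of replicates 1 and 2 (r = 0.993) and a pair of replicates 3 and 4 (r = 0.996), with r from 0.961 to 0.962 between the pairs.

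The control cultures went against their line label in this respect. By mean r of log2 CPM with the non-LRCs of each line, all 16 control libraries were closest to HCT15. The later-day DMSO libraries had a mean r of 0.974 with HCT15 non-LRCs and 0.910 with DLD1 non-LRCs, and DLD1 and HCT15 non-LRCs had a mean r of 0.915 with each other. The CFSE day 1 libraries had 0.905 with HCT15 and 0.852 with DLD1. The reason was not tested, and these cultures are called the controls labeled DLD1.

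The binding site best known for LXR with its partner is a direct repeat of AGGTCA spaced by 4 bases. RefSeq promoter windows of 300 bases, 250 before and 50 after a transcript start (table of GRCh38.p14, placed here on GRCh37 by exact match), were searched on both strands with at most 1 mismatch in each AGGTCA. Of the 7 genes, ABCG1 had no window and was not searched. The other 6 had 9 windows in all, and 1 of these 6 genes held a match, which was ABCA1. Over all 27305 genes with a window, 467 held a match, and over all 35116 windows 484 did (1.38%). Of 58 other pathway genes with a window 0 did. The ABCA1 match began 69 bases and ended 54 bases before the start, on the opposite strand, with 2 mismatches in all. The 250 bases upstream of ABCA1 are shown because it is the window with a match, with the AGGTCA-like elements of that match in capitals, and those of MYLIP are shown as the same stretch of a target whose level moved with ABCG1 but whose window held none. The ABCA1 stretch is chr9:107690437-107690686 on the minus strand and the MYLIP stretch is chr6:16129067-16129316 on the plus strand, both GRCh37.
ABCA1: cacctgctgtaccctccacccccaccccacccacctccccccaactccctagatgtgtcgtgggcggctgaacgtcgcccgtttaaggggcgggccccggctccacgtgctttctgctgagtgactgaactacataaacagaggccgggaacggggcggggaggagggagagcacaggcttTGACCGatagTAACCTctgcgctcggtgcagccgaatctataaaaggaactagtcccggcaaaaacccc
MYLIP: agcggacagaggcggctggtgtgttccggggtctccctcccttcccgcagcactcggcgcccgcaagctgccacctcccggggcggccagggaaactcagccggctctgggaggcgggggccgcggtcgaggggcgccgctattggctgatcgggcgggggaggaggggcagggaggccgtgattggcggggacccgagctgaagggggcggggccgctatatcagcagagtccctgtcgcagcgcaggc
A match describes letters in this window only, and binding was not measured in these data.

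ABCG1 (chr21:43619799-43717354, plus strand, GRCh37) exports cholesterol to high density lipoprotein particles. It was higher in LRCs than in the same-numbered non-LRCs in 24 of 24 pairs, which is the pattern it was chosen by. In DLD1 the 4 LRC samples held 22.0, 21.4, 18.0 and 18.5 CPM and the 4 non-LRC samples 7.25, 7.30, 4.84 and 5.52 CPM. The groups were far apart, with a ratio of means of 3.21, the widest of the 6 lines. In HCT15, the other CCS3 line, LRCs held 4.89, 5.94, 7.83 and 7.52 CPM and non-LRCs 3.12, 3.43, 3.80 and 3.62 CPM. These groups did not overlap either, at a ratio of 1.87. RKO lay near the limit of detection, where LRCs held 0.522, 0.467, 0.495 and 0.379 CPM and non-LRCs 0.152, 0.130, 0.315 and 0.125 CPM. All 4 LRC samples were above all 4 non-LRC samples there, on 27 reads against 10 in total.

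In the CCS1 lines and SW48 the ABCG1 values of both populations overlapped. HT55 had the highest level, and its LRCs held 36.3, 18.0, 28.4 and 31.6 CPM against 18.3, 16.9, 19.2 and 16.6 CPM. Its LRC replicate 2, a library that stood apart, lay among the non-LRCs, and the log2 difference was 0.64 ± 0.41 (SD of 4 pairs) with it and 0.82 without that pair. SW948 LRCs held 7.17, 5.21, 7.21 and 2.65 CPM and non-LRCs 2.47, 1.81, 3.35 and 2.36 CPM. The low value was LRC replicate 4, the library close to the non-LRCs, and the difference was 1.05 ± 0.62 with it and 1.34 without that pair. SW48 LRCs held 6.99, 3.20, 6.49 and 7.31 CPM and non-LRCs 6.21, 1.081, 4.98 and 4.51 CPM. Both replicate 2 libraries were the lowest of their groups, and the difference fell from 0.67 ± 0.57 to 0.41 without them. Over the 6 line differences, the mean log2 difference of ABCG1 was 0.98 ± 0.38 (SD, n = 6 lines).

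**Figure D1:**
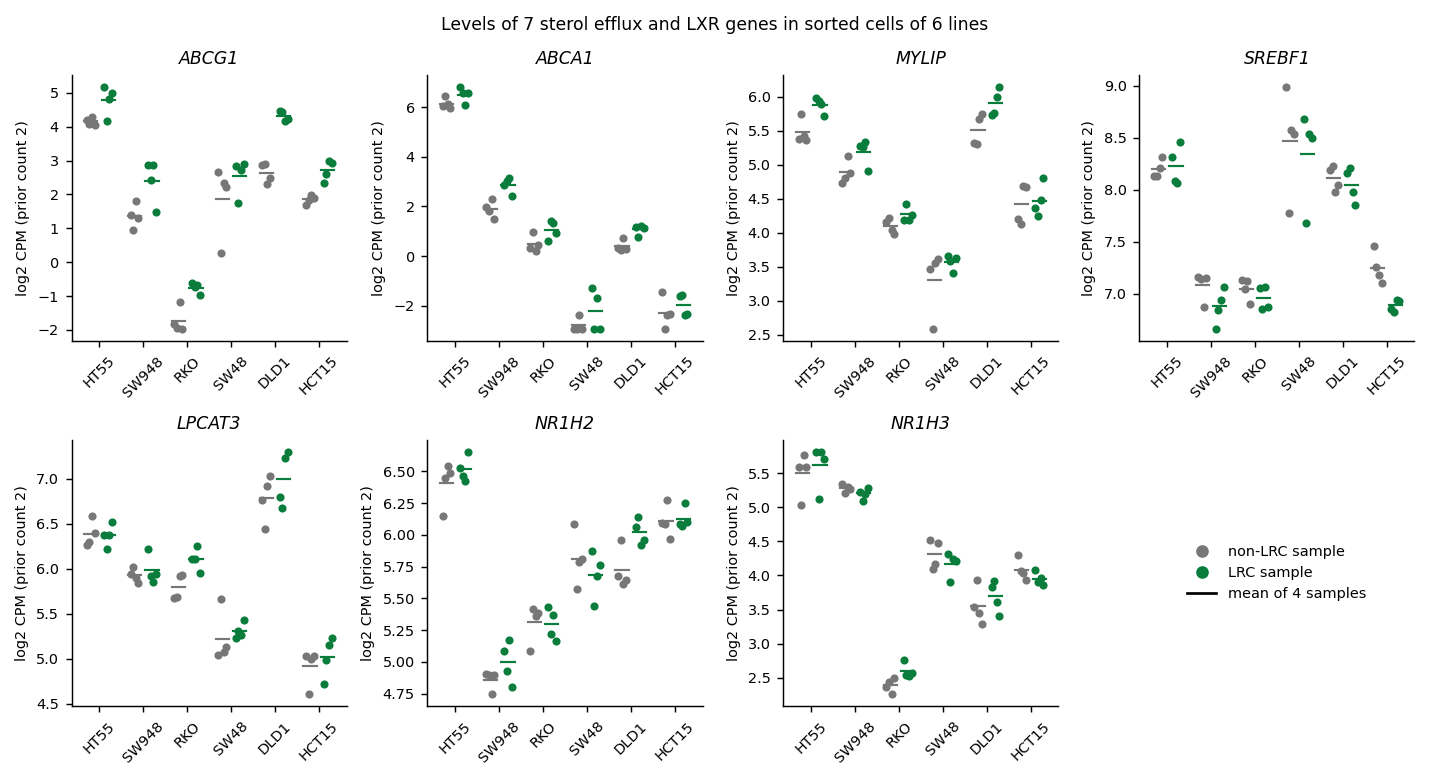
Log2 CPM (prior count 2) of the 7 genes in each sorted sample of the 6 lines, with non-LRC samples in gray, LRC samples in green and a line at the mean of 4 samples. ABCG1 LRC means sit above non-LRC means in every line, while SREBF1, NR1H2 and NR1H3 differ more between lines than between populations.

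Macrophages are the cells best known for ABCG1 and ABCA1, so leukocyte markers were set beside them. CD68, a lysosomal protein made by many cell types, was higher in the LRCs of all 6 lines by its mean. In DLD1 it averaged 2.90 CPM in non-LRCs and 8.08 CPM in LRCs, in HCT15 5.93 and 20.6 CPM, and in RKO 1088 and 1366 CPM. The 6 leukocyte markers summed to 2.61 to 7.23 CPM in DLD1 non-LRCs and 5.76 to 16.8 CPM in DLD1 LRCs. In SW948 the sum averaged 1415 CPM in non-LRCs and 1391 CPM in LRCs. PTPRC (CD45), the marker that defines leukocytes, was at 0 CPM in the DLD1 and RKO LRCs and 0.0290 CPM in the HCT15 LRCs, but at 14.3 CPM in SW48 LRCs and 15.6 CPM in SW48 non-LRCs. CD14 was at 0.628 CPM in DLD1 LRCs and 0.302 CPM in DLD1 non-LRCs, and at 6.36 and 7.31 CPM in HCT15. CSF1R, a receptor of macrophages, was at 0.473 CPM in DLD1 LRCs and 0.0659 CPM in DLD1 non-LRCs, and at 1.41 and 0.124 CPM in HCT15. ITGAM was at 0.243 CPM in DLD1 LRCs and 0.157 CPM in DLD1 non-LRCs, and at 0.179 and 0.0616 CPM in HCT15. LYZ went the other way, with means slightly lower in LRCs in every line but HCT15. It averaged 1334 CPM in SW948 LRCs and 1371 CPM in SW948 non-LRCs, and 0.970 and 1.015 CPM in DLD1. Fibroblast markers summed to 5.91 to 8.31 CPM in DLD1 non-LRCs and 7.73 to 9.44 CPM in DLD1 LRCs, nearly all of it PDGFRB. The part of these markers in the ABCG1 and ABCA1 differences was not tested. In bulk RNA, more cells with a transcript and more transcript per cell cannot be told apart.

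ABCA1 (chr9:107543287-107690436, minus strand) hands cholesterol and phospholipid to apolipoprotein A-I. In SW948 the LRCs held 7.10, 8.08, 8.63 and 5.21 CPM and the non-LRCs 3.80, 3.39, 4.82 and 2.67 CPM. The groups did not overlap, the ratio of means was 1.97, and the log2 difference was 0.96 ± 0.18, or 0.97 without pair 4. In DLD1 the LRCs held 2.14, 1.58, 2.17 and 2.07 CPM and the non-LRCs 1.12, 1.05, 1.503 and 1.09 CPM. These groups were also apart, at a log2 difference of 0.68 ± 0.20. RKO LRCs held 1.39, 2.51, 2.39 and 1.79 CPM against 1.14, 1.82, 1.03 and 1.25 CPM, and HT55 LRCs 113.8, 94.5, 67.7 and 95.5 CPM against 65.3, 86.7, 70.6 and 63.02 CPM. In both lines the groups overlapped, with 4 of 4 and 3 of 4 pairs higher in LRCs. HCT15 and SW48 gave too few reads for a ratio. In HCT15, 9 ABCA1 reads were counted over the 4 LRC samples and 6 over the 4 non-LRC samples, and in SW48 6 and 1.

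MYLIP (chr6:16129317-16148479, plus strand) was higher in LRCs in 22 of 24 pairs by smaller amounts. In DLD1 the LRCs held 53.2, 54.3, 63.9 and 70.8 CPM and the non-LRCs 39.8, 39.5, 50.8 and 53.7 CPM. The groups overlapped because replicates 3 and 4 were higher than 1 and 2 in both populations, while the 4 pair differences were close to each other (log2 difference 0.40 ± 0.05). HT55 differed by as much on the log2 scale (0.40 ± 0.17), with LRCs at 63.1, 61.1, 59.5 and 52.4 CPM and non-LRCs at 41.6, 53.7, 43.0 and 41.1 CPM. SW948 followed at 0.31 ± 0.23 (0.40 without pair 4) and RKO at 0.17 ± 0.11. In SW48 the difference of 0.26 ± 0.51 came from replicate 2, where LRCs held 11.9 CPM and non-LRCs 5.88 CPM, and was 0.02 without it. HCT15 showed 0.05 ± 0.18. MYLIP groups overlapped in all 6 lines, and the mean of the 6 line differences was 0.27 ± 0.14 (SD, n = 6 lines).

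SREBF1 (chr17:17713713-17740316, minus strand), which encodes the SREBP-1 factors of fatty acid synthesis, went the other way. It was higher in LRCs in only 4 of 24 pairs, and its mean line difference was -0.13 ± 0.14 on the log2 scale. In HCT15 the LRCs held 115.8, 113.4, 123.1 and 121.9 CPM and the non-LRCs 175.4, 153.1, 144.8 and 137.4 CPM. All 4 LRC samples lay below all 4 non-LRC samples, at a ratio of 0.776. In the other 5 lines the groups overlapped, and the log2 differences ran from -0.20 in SW948 to 0.03 in HT55. SREBF1 shares 556 bases of exon with RAI1 on the opposite strand, and whether the counting used strand is not given in the sources used here.

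LPCAT3 (chr12:7085347-7125781, minus strand), which loads polyunsaturated fatty acids onto lysophospholipids, was higher in LRCs in 18 of 24 pairs. RKO LRCs held 68.8, 69.2, 76.2 and 61.9 CPM and RKO non-LRCs 51.2, 51.4, 60.4 and 60.7 CPM. These groups were apart, but only by the gap between 61.9 and 60.7 CPM. In DLD1 the difference was 0.21 ± 0.12, with 4 of 4 pairs higher and overlapping groups, and in the other 4 lines it ran from -0.01 to 0.10. Of the 4692 bases of LPCAT3 exon, 3096 are also exon of EMG1 on the opposite strand. How reads on these bases were counted depends on whether strand was used.

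Of the receptors, NR1H2 (chr19:50832910-50886645, plus strand) was higher in LRCs in 13 of 24 pairs and so was NR1H3 (chr11:47269851-47290584, plus strand). NR1H2 had opposite signs in 2 lines. In DLD1 all 4 pairs were higher in LRCs (66.5, 70.4, 60.4 and 62.1 CPM against 50.95, 62, 48.7 and 49.8 CPM), and in SW48 all 4 were lower (58.4, 43.2, 51.1 and 54.02 CPM against 67.9, 47.4, 55.1 and 55.9 CPM). The groups overlapped in both lines. NR1H3 was higher in all 4 pairs in HT55 and RKO and lower in all 4 in HCT15, with differences of 0.12 ± 0.08, 0.21 ± 0.15 and -0.13 ± 0.07. In RKO, where its level was lowest, LRCs held 6.61, 5.67, 5.61 and 5.79 CPM and non-LRCs 5.001, 5.26, 4.65 and 5.49 CPM, which did not overlap. NR1H2 shares 1182 exon bases with NAPSA and NR1H3 189 with ACP2, each on the opposite strand.

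**Figure D2:**
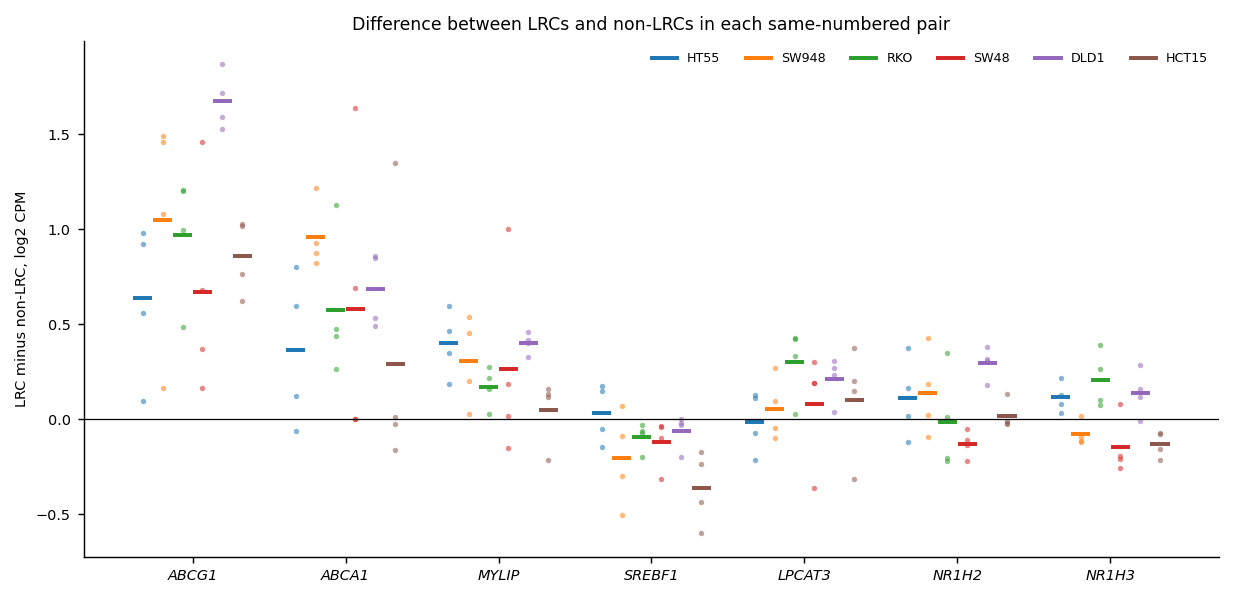
Log2 CPM in LRCs minus that in the same-numbered non-LRCs, 4 points per line and gene, with a bar at the difference of the group means and a line at 0. All 24 ABCG1 points are above 0, those of MYLIP mostly lie between 0 and 0.5, and those of SREBF1, NR1H2 and NR1H3 fall on both sides; ABCA1 points at 0 in SW48 are pairs without a read.

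Of the 42 differences (7 genes in 6 lines) 31 were positive. LRC samples lay wholly above non-LRC samples for 3 of the 7 genes in RKO (19.2% of the genes with at least 10 counts in 4 of the 8 samples), 2 in DLD1 (8.86%), 1 in HCT15 (5.22%) and 1 in SW948 (2.69%). None of the 7 did in HT55 (1.79%) or SW48 (4.82%). The LRC samples lay wholly below for 1 gene in HCT15 (5.2%) and 0 genes in RKO (17.8%), DLD1 (12.1%), SW48 (3.44%), SW948 (2.16%) and HT55 (1.49%). ABCG1 is one of the 3 in RKO but, at 2 to 8 reads per sample there, is not among the genes behind that percentage. As the genes were selected on this contrast, nothing is read from these counts.

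Genes with the most similar pattern were found over the 48 sorted samples, after the mean of each line had been subtracted, among 11716 genes. For ABCG1 they were PHF1 (Pearson r = 0.875), MEF2D (0.841), RNF103 (0.821), CDKN2B (0.82) and CD55 (0.814). PHF1 recruits Polycomb repressor complexes, MEF2D is a transcription factor, CDKN2B is the cyclin-dependent kinase inhibitor p15 and CD55 shields cells from complement. For ABCA1 they were KLHL21 (0.693), JMY (0.68) and CREBRF (0.665). Of the 7 genes, MYLIP (0.664), NR1H2 (0.581) and ABCA1 (0.54) varied most like ABCG1, and SREBF1 (0.12) and LPCAT3 (0.167) least. These correlations describe samples that share lines, populations and library depth, and they carry no test.

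The other genes of the pathway were tested in a fit of the 48 sorted samples that held a term for each line. Of 76 listed genes in 8 groups, 66 had enough counts, and by edgeR at an adjusted p under 0.05 14 were higher in LRCs (21.2%, against 12.2% of all 16603 genes tested) and 7 were lower (10.6%, against 10.7%). Their median log2 difference was 0.03 and that of all genes tested 0.01. The 8 groups were listed with earlier results of these data known. These calls and shares, here and in the controls below, therefore cannot be taken as independent of those results. The count of 21 called genes was 12 without RKO, 4 at a log2 size of at least 0.5, 12 to 23 without 1 replicate number and 21 without replicate 2 of HT55 and SW48 and SW948 LRC replicate 4. Each gene named next is one of the 3 with the smallest p in its group.

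Of the 12 tested genes of intracellular sterol trafficking and esterification, 6 were higher in LRCs and 1 was lower. NPC2, which lifts cholesterol off lysosomal lipid, rose by 0.21 ± 0.05 (log2, standard error; edgeR adjusted p = 0.0014) and was higher in 18 of 24 pairs. OSBP, an oxysterol-binding carrier between the endoplasmic reticulum and Golgi, rose by 0.14 ± 0.03 (edgeR adjusted p = 0.00062), with all 6 line means higher. STARD3, which moves sterol between endosomes and the endoplasmic reticulum, rose by 0.15 ± 0.04 (edgeR adjusted p = 0.0039). NPC2 was widest in RKO at 0.43, where LRCs held 85.8 CPM and non-LRCs 64.5 CPM, and narrowest in HT55 at 0.01.

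Other lipid transporters showed 2 of 6 higher and 0 lower. ABCG4, the closest relative of ABCG1, rose by 0.58 ± 0.17 (edgeR adjusted p = 0.0094) at levels between 0 and 3.84 CPM, highest in RKO. ABCG2, an efflux pump of many drugs, rose by 0.45 ± 0.16 (edgeR adjusted p = 0.033). ABCA7 had a difference of 0.18 ± 0.07 that did not pass (edgeR adjusted p = 0.060). In RKO, where ABCG1 was scarcest, LRCs averaged 3.84 CPM of ABCG4 and non-LRCs 2.201 CPM.

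Of 11 tested other LXR target genes, 2 were higher and 1 was lower. MERTK, a receptor kinase for the uptake of dead cells, rose by 0.45 ± 0.07 (edgeR adjusted p = 1.4e-05) and was higher in 22 of 24 pairs. APOE, the apolipoprotein that accepts effluxed cholesterol, rose by 0.81 ± 0.20 (edgeR adjusted p = 0.0029), but lay at 0.115 to 4.21 CPM in the LRC groups and was lower in RKO. FASN, the fatty acid synthase that SREBP-1 and LXR both drive, fell by 0.30 ± 0.06 (edgeR adjusted p = 0.00018) and was higher in only 2 of 24 pairs. FASN line means were lower in 6 of 6 lines, and SREBF1 line means were lower in 5 of 6.

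SREBF2, the SREBP gene of cholesterol synthesis, fell by 0.14 ± 0.03 (edgeR adjusted p = 0.00056) as the 1 call among 6 genes of SREBP processing. CYP11A1, which cleaves the cholesterol side chain, rose by 0.95 ± 0.26 (edgeR adjusted p = 0.0055) at no more than 2.36 CPM. Only 226 CYP11A1 reads were counted over the 64 samples, and only 13 pairs held any, of which 11 were higher in LRCs. Its line differences ran from -0.13 to 0.99, the largest in RKO, so the call is not a rise shared by all lines.

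Among proteins that MYLIP ubiquitinates, VLDLR, a lipoprotein receptor, rose by 0.66 ± 0.13 (edgeR adjusted p = 0.00032) and LRP8, the related APOER2, fell by 0.29 ± 0.08 (edgeR adjusted p = 0.010). No reads for VLDLR were counted in SW48, and only 2 in RKO. The acyltransferase relatives of LPCAT3 gave 2 lower of 8, LPCAT4 (-0.14 ± 0.04, edgeR adjusted p = 0.017) and AGPAT3 (-0.08 ± 0.03, edgeR adjusted p = 0.046), and AGPAT3 did not pass by DESeq2 or without SW48 replicate 2. Of 11 tested LXR partners and coregulators 2 were higher, the coactivator NCOA1 (0.13 ± 0.04, edgeR adjusted p = 0.014) and the corepressor NRIP1 (0.22 ± 0.07, edgeR adjusted p = 0.030). None of the retinoid X receptors was among them.

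**Figure D3:**
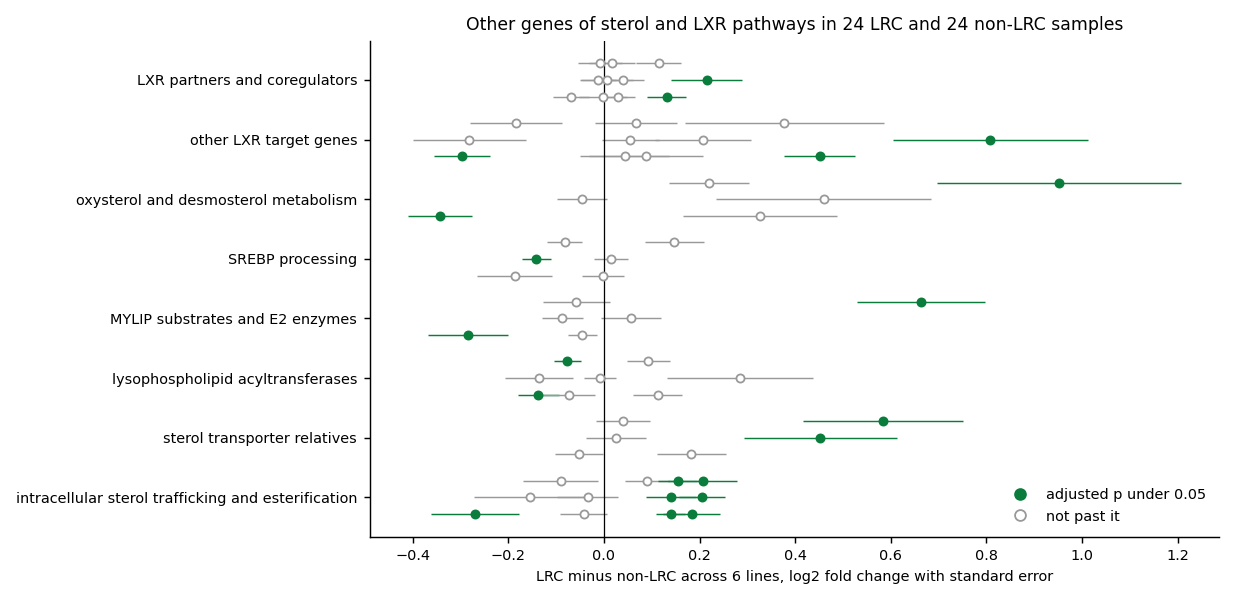
Log2 fold change of LRCs over non-LRCs with its standard error for each tested gene of the 8 pathway groups, from the fit of 48 sorted samples, with filled points past an adjusted p of 0.05. The sterol trafficking group has 6 filled points above 0 and 1 below, and most others lie within 0.2 of 0.

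The levels of the 7 genes between lines were compared in the non-LRCs, a measure that the selection did not use. All 7 differed between the 6 lines by edgeR's F test, as did 98.3% of 15779 genes tested. Between neighbors in each gene's own order of lines, 20 of 35 steps passed an adjusted p of 0.05, against 42% of such steps over all genes.

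ABCG1 was highest in HT55, at 17.7 ± 1.25 CPM (SD, n = 4), above DLD1 at 6.23 ± 1.24 (log2 step 1.53, edgeR adjusted p = 6.2e-06). DLD1, SW48, HCT15 and SW948 followed without a step that passed (edgeR adjusted p = 0.057, 0.45 and 0.15). RKO was lowest at 0.180 ± 0.0907 CPM, 3.79 on the log2 scale below SW948 (edgeR adjusted p = 1.7e-07). ABCA1 had a steeper order, from 71.4 ± 10.7 CPM in HT55 to 3.67 ± 0.898 in SW948 and 1.31 ± 0.353 in RKO, each step past the test (edgeR adjusted p = 6.0e-17 and 2.6e-06). The step from RKO to DLD1 did not pass (edgeR adjusted p = 0.69), and HCT15 and SW48 held 6 reads and 1 read in 4 samples. HT55 was the line richest in both pumps, and RKO was lowest in ABCG1 but above DLD1, HCT15 and SW48 in the order of ABCA1.

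MYLIP was highest in DLD1 (45.9 ± 7.36 CPM) and HT55 (44.8 ± 5.95 CPM), a step that did not pass (edgeR adjusted p = 0.96), and lowest in SW48 at 10.1 ± 2.88 CPM. SREBF1 passed only the step between DLD1 at 277.2 ± 23.0 and HCT15 at 152.7 ± 16.5 CPM (log2 step 0.86, edgeR adjusted p = 2.9e-05), with SW48 and HT55 above and SW948 and RKO below. LPCAT3 ran from 111.6 ± 18.9 CPM in DLD1 to 30.4 ± 4.08 CPM in HCT15, and 4 of its 5 steps passed. NR1H2 ranged from 85.1 ± 9.85 CPM in HT55 to 28.9 ± 1.49 CPM in SW948, and 4 of its 5 steps passed. NR1H3 ranged more widely, from 45.9 ± 9.22 CPM in HT55 and 38.8 ± 1.47 in SW948, a step that did not pass (edgeR adjusted p = 0.065), to 5.10 ± 0.361 CPM in RKO. The receptor levels thus had different orders, with SW948 lowest in NR1H2 and next to highest in NR1H3.

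Per kilobase of full exon length, SREBF1 was the most abundant of the 7 genes in every non-LRC group, at 16.1 to 44.9 CPM per kb. These lengths include bases shared with genes on the opposite strand, 3096 of 4692 for LPCAT3 and 1182 of 5341 for NR1H2. If reads on shared bases were not counted, the values of these genes are too low, and the order of the 7 genes could differ. MYLIP was at 3.30 to 14.95, LPCAT3 at 6.47 to 23.8 and NR1H2 at 5.42 to 15.9 CPM per kb. NR1H3 was below NR1H2 on this scale in 5 lines, and in SW948 it was above, at 8.55 ± 0.323 against 5.42 ± 0.279 CPM per kb. The pumps were the scarcest, with ABCG1 at 0.0295 to 2.90 CPM per kb and ABCA1 at 0.00136 to 6.30 CPM per kb.

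Unsorted cultures labeled DLD1 were used to ask what time in culture and the dye itself do to these genes. ABCA1 was nearly absent, with 0 to 4 reads per sample in all 16 cultures, and was not tested, so 6 of the 7 genes were. The share of reads outside genes was 9.0% to 14.8% on day 1 and 5.2% to 8.4% on the later day, so it moved with time, and its part in the results was not tested. The 5 comparisons share groups of cultures.

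NR1H2 was the 1 gene of 6 that passed in unlabeled cells over time, and it rose (12.4% of all genes tested rose and 13.1% fell). The DMSO cultures held 39.4, 41.2, 34.8 and 54.7 CPM on day 1 and 58.2, 65.7, 62.9 and 64.7 CPM on the later day. The groups were apart, and the highest day 1 value was replicate 4, the library that resembled the later day. The log2 difference was 0.56 ± 0.15 (edgeR adjusted p = 0.017), and 0.64 ± 0.13 (edgeR adjusted p = 0.0012) without that library. In a fit of only the 8 DMSO samples 0 of the 6 passed, with NR1H2 at 0.52 ± 0.14 (edgeR adjusted p = 0.054). In the fit of all control groups without day 1 replicate 4, 3 of the 6 genes passed, with LPCAT3 higher and NR1H3 lower later (-0.38 ± 0.13, edgeR adjusted p = 0.029). Over all genes, 6077 passed in that fit and 3695 with the library kept. Leaving out any other day 1 DMSO library left 0 of the 6.

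ABCG1 in unlabeled cells held 1.71, 1.93, 1.11 and 2.27 CPM on day 1 and 5.29, 2.999, 2.60 and 2.97 CPM on the later day. The groups did not overlap, but the difference of 0.97 ± 0.41 did not pass (edgeR adjusted p = 0.089). LPCAT3 went from 26.7, 29.0, 27.7 and 34.4 CPM to 34.8, 35.3, 33.9 and 35.2 CPM, a difference of 0.24 ± 0.10 (edgeR adjusted p = 0.090). It passed without the day 1 replicate 4 library (0.25 ± 0.10, edgeR adjusted p = 0.043). In sorted DLD1 cells ABCG1 stood at 4.84 to 7.30 CPM in non-LRCs and 18.0 to 22.0 CPM in LRCs, and no unsorted culture exceeded 5.29 CPM. LPCAT3 was at 86.7 to 130.3 CPM in sorted DLD1 non-LRCs and 22.2 to 35.3 CPM in the unsorted cultures. In sorted HCT15 non-LRCs, the non-LRCs nearest to these cultures, ABCG1 was at 3.12 to 3.80 CPM and LPCAT3 at 24.3 to 32.7 CPM. MYLIP averaged 22.2 CPM in later-day DMSO cultures, 21.6 CPM in HCT15 non-LRCs and 45.9 CPM in DLD1 non-LRCs, and SREBF1 averaged 141.7, 152.7 and 277.2 CPM. ABCA1 averaged 0.0313, 0.0897 and 1.19 CPM in these 3 groups, on 2, 6 and 70 reads. Sorting, experiment and the line that was cultured cannot be told apart here, so these values are only set side by side.

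In CFSE-labeled cells over time, 1 gene of 6 rose and 1 fell (20.2% and 19.1% of all genes tested). LPCAT3 went from 22.2, 23.9, 25.7 and 23.8 CPM to 27.1, 31.3, 30.3 and 30.3 CPM, without overlap, by 0.28 ± 0.10 (edgeR adjusted p = 0.037). In a fit of only the 8 CFSE samples neither LPCAT3 (0.25 ± 0.10, edgeR adjusted p = 0.064) nor MYLIP (edgeR adjusted p = 0.068) passed. In the fit of all control groups, LPCAT3 passed without CFSE day 1 replicate 3 or later-day replicate 1. Without any other 1 of the 8 CFSE cultures its edgeR adjusted p ran from 0.073 to 0.17. Without TMM scaling the LPCAT3 difference was 0.17 ± 0.11 (edgeR adjusted p = 0.24). MYLIP held 69.2, 60.2, 9.55 and 9.35 CPM on day 1 and 11.01, 12.3, 15.4 and 15.5 CPM on the later day. The difference of -1.501 ± 0.52 on the log2 scale (edgeR adjusted p = 0.029) came from replicates 1 and 2, and replicates 3 and 4 alone gave a difference of 0.61 ± 0.33 in the other direction (edgeR adjusted p = 0.21). With replicate number as a block, which paired the CFSE cultures, the MYLIP fall did not pass (-1.32 ± 0.56, edgeR adjusted p = 0.072). ABCG1 split the same way on day 1, with 3.26, 3.73, 0.909 and 0.876 CPM, and held 2.88, 2.82, 2.40 and 1.99 CPM later.

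With dye against DMSO on day 1, 2 of 6 genes passed (21.8% of all genes tested). MYLIP was higher with dye by 1.51 ± 0.51 (edgeR adjusted p = 0.045), again from replicates 1 and 2, and did not pass without CFSE replicate 1 or 2 or DMSO replicate 1, 2 or 3 (edgeR adjusted p from 0.093 to 0.21). SREBF1 was lower with dye, at 103.9, 106.0, 111.2 and 105.2 CPM against 145.9, 157.2, 145.5 and 138.3 CPM. The SREBF1 groups were wide apart, and the difference was -0.43 ± 0.12 (edgeR adjusted p = 0.021). It was -0.50 ± 0.13 without DMSO replicate 4 (edgeR adjusted p = 0.017), and it did not pass without DMSO replicate 2 or CFSE replicate 1 or 2 (edgeR adjusted p from 0.051 to 0.068). LPCAT3 was lower in all 4 dye cultures without passing (-0.28 ± 0.10, edgeR adjusted p = 0.059).

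**Figure D4:**
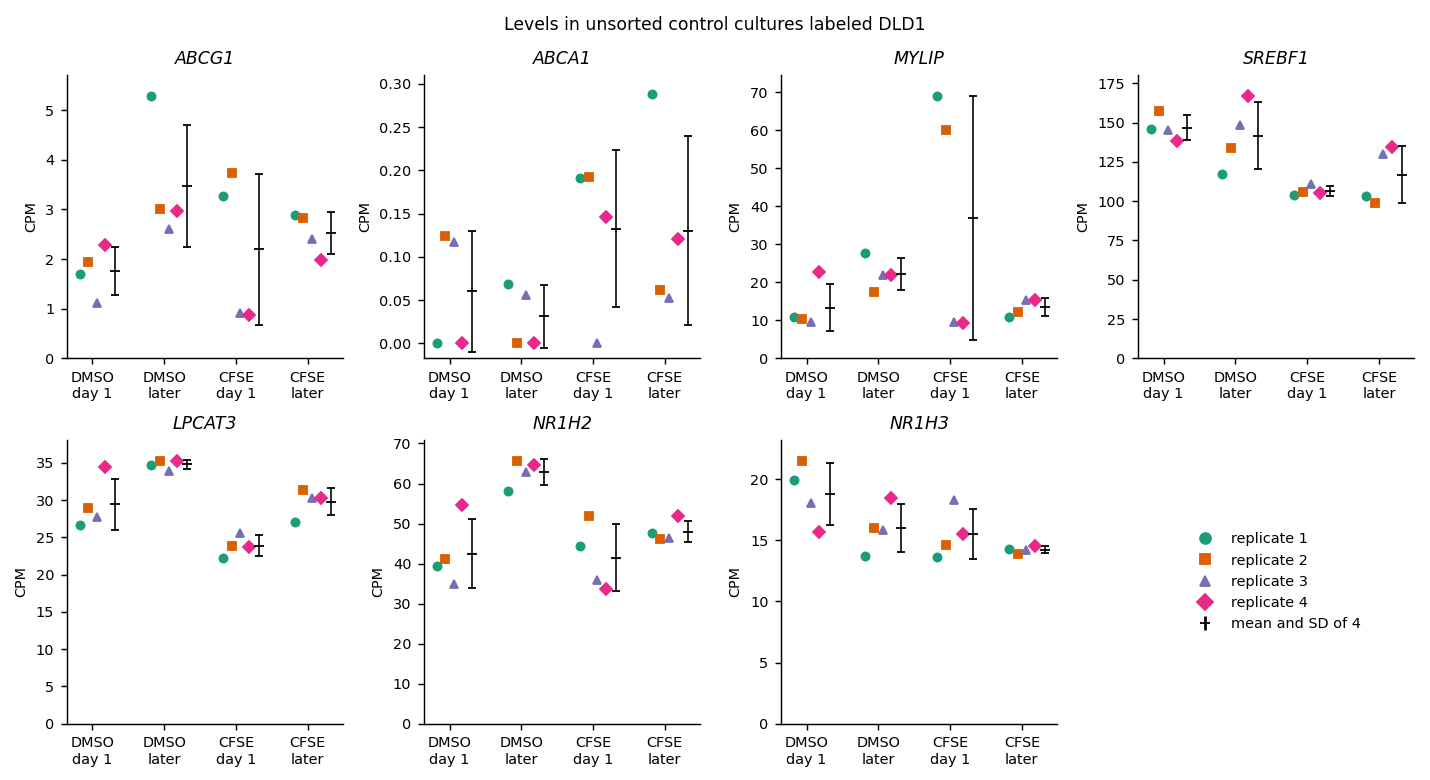
CPM of the 7 genes in the unsorted cultures labeled DLD1 by dye and day, with a symbol for each replicate number and the mean with its SD at the right of each group. MYLIP on CFSE day 1 splits into replicates 1 and 2 at 60.2 to 69.2 CPM and replicates 3 and 4 near 9.4 CPM, and DMSO day 1 replicate 4 is the highest of its group for ABCG1, MYLIP, LPCAT3 and NR1H2.

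On the later day, 0 of 6 genes passed between CFSE and DMSO (5.13% of all genes tested) by edgeR and by DESeq2. At an unadjusted edgeR p under 0.05, 3 were lower with dye, SREBF1, LPCAT3 and NR1H2. Over all 14518 genes tested, 3537 were under that p in either direction. NR1H2 held 47.6, 46.0, 46.4 and 51.9 CPM with dye and 58.2, 65.7, 62.9 and 64.7 CPM without, groups that did not overlap (-0.40 ± 0.15, edgeR adjusted p = 0.11). For the difference between the dye effects of both days, 0 of 6 passed by either tool (0.999% of all genes tested). MYLIP was the only one of the 6 at an unadjusted edgeR p under 0.05 (-2.23 ± 0.73, edgeR adjusted p = 0.13). Over all 14518 genes tested, 2474 were under that p. MYLIP passed without DMSO day 1 replicate 4 (-2.54 ± 0.73, edgeR adjusted p = 0.049), as it did without CFSE day 1 replicate 3 or 4 (edgeR adjusted p = 0.040 and 0.037).

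Of 60 tested genes of the 8 pathway groups, 10 rose and 5 fell with time in unlabeled cells, and 23 rose and 8 fell with time in CFSE-labeled cells, against 12.4%, 13.1%, 20.2% and 19.1% of all genes tested. Without DMSO day 1 replicate 4, 20 rose and 7 fell in unlabeled cells. Over all genes, 6077 passed in that fit, against 3695 in the main fit. Replicates 1 and 2 alone gave 27 and 14 of 59 tested in unlabeled and 28 and 13 in labeled cells, and replicates 3 and 4 alone 0 and 0, and 6 and 4. The counts over all genes were 7915 and 7651 with replicates 1 and 2 alone, and 0 and 1908 with 3 and 4 alone. NPC2, the gene with the smallest p in unlabeled cells, rose by 0.52 ± 0.11 (edgeR adjusted p = 0.0073), and in labeled cells it rose by 0.79 ± 0.11 (edgeR adjusted p = 0.00012). From replicates 3 and 4 alone the NPC2 difference in unlabeled cells did not pass (0.29 ± 0.11, edgeR adjusted p = 0.41). With dye on day 1, 3 of the 60 were higher and 19 were lower (9.73% and 12% of all genes tested). Without DMSO replicate 4 these were 3 and 12, with replicates 1 and 2 alone 7 and 28 of 59, and with 3 and 4 alone 0 and 4. Over all genes, 3162 passed in the main fit and 1358 to 3715 without 1 culture. With replicates 1 and 2 alone 6688 did, and with 3 and 4 alone 677. Among the 19 lower in the main fit were 5 of 9 other LXR target genes and 3 of 6 SREBP processing genes. Another of those 9, APOE, was higher with dye (1.59 ± 0.47, edgeR adjusted p = 0.024). Of the 6 MYLIP substrates and E2 enzymes 0 passed in either direction. SCD, the stearoyl-CoA desaturase, fell by 1.76 ± 0.30 (edgeR adjusted p = 0.0016), from 1722, 1756, 2185 and 1507 CPM without dye to 254.9, 264.8, 811.9 and 763.8 CPM with it. SREBF2 fell by 0.93 ± 0.16 (edgeR adjusted p = 0.0019) and APOC1, an apolipoprotein of the APOE cluster, by 1.25 ± 0.20 (edgeR adjusted p = 0.0012). Without DMSO replicate 4 all 3 passed. With replicates 3 and 4 alone SCD fell by 1.19 ± 0.18 (edgeR adjusted p = 0.024) and SREBF2 by 0.77 ± 0.15 (edgeR adjusted p = 0.037), and APOC1 did not pass (-0.85 ± 0.24, edgeR adjusted p = 0.075). On the later day 2 of the 60 were higher with dye and 4 lower (5.13% of all genes tested), and SCD then held 1690 to 1879 CPM with dye and 1423 to 1954 CPM without.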

How the data were processed

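RNA-seq read counts per gene of 64 samples were used as the authors deposited them. Per the labels and the study's methods, Truseq libraries were sequenced as 50-bp single-end reads, and the submitters' processing notes name TopHat, HTSeq, DESeq and hg19 without versions. Rows that name no gene (5.19% to 14.8% of reads outside genes) were left out of library sizes. Depth ran from 12237225 to 20913455 counts per sample, which leaves genes under about 1 CPM with few reads. Counts were fitted with edgeR 4.0.16 (R 4.3.3) by quasi-likelihood F tests with TMM scaling, on genes that reached 10 counts in 4 or more samples. P-values were adjusted by Benjamini-Hochberg over all genes tested, with a threshold of 0.05, and log2 CPM used a prior count of 2. The study's methods call the 4 replicates biological, and the labels do not say what a replicate number shares, so p-values measure only the spread between these samples. Sorted samples were fitted with cell line as a covariate, the 16 unsorted cultures labeled DLD1 in 1 model of 4 groups, and lines in the 24 non-LRC samples.

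The 7 genes and the 8 pathway lists of 76 genes were chosen with earlier results of these data known. Pathway genes were named as the 3 with the smallest p in each list, or in each control comparison, and genes alike in pattern by Pearson's r. The values of 1 such gene are not reported here. Scripts were tested on simulated data. Same-numbered samples were checked for pairing by the correlation of their deviations from group means. All 4 pairs exceeded 0.1 in DLD1, HCT15, HT55, SW48 and the CFSE days (lowest 0.124 to 0.24), and not in RKO, SW948, the DMSO days, the day 1 dyes or the later-day dyes (lowest -0.225 to 0.0493). Alternatives were DESeq2 1.42.0, no TMM, other filters, a replicate block, a log2 threshold of 0.5 and leaving out lines, replicates and libraries. No 2 samples held identical counts. Symbols and positions came from a GRCh37 annotation, which matched 47098 of 54127 identifiers (87.0%).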

Additional observations from a re-analysis of the deposited data

Results flagged for a closer look

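Among the 112 sets of 4 samples (7 genes in 16 groups), 13 (11.6%) held 1 sample far from the other 3. The rule flags about 1 in 20 sets of independent, normally distributed values. These sets share libraries and some hold few reads, so the 11.6% cannot be set against that rate. Libraries that stood apart throughout gave MYLIP at 22.7 CPM in DMSO day 1 replicate 4 and, as replicate 2, MYLIP at 53.7 CPM in HT55 non-LRCs, NR1H3 at 34.7 CPM in HT55 LRCs and LPCAT3 at 50.6 CPM in SW48 non-LRCs. The other high samples were ABCG1 at 0.315 CPM in RKO non-LRCs and at 5.29 CPM in later-day DMSO cultures, ABCA1 at 0.0615 CPM in SW48 non-LRCs (1 read) and at 1.503 CPM in DLD1 non-LRCs, and NR1H2 at 62 CPM in DLD1 non-LRCs and 76.1 CPM in HCT15 LRCs. The other low samples were SREBF1 at 117.3 CPM and NR1H2 at 26.7 CPM in SW948 non-LRCs, and LPCAT3 at 24.3 CPM in HCT15 non-LRCs.

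The receptors had all 4 pairs in one direction in some lines and in the opposite direction in others. NR1H2 differed by 0.30 (log2, LRC minus non-LRC) in DLD1 and by -0.13 in SW48. NR1H3 differed by 0.12 in HT55 and 0.21 in RKO and by -0.13 in HCT15. These differences between lines were not tested.

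In the controls labeled DLD1 the dye effect differed between the days for RXRB and SCD. The later-day effect minus the day 1 effect was -0.57 for RXRB, a retinoid X receptor (edgeR adjusted p = 0.041) and 1.81 for SCD (edgeR adjusted p = 0.046). RXRB means were 59.1 CPM with dye and 50.4 CPM without on day 1, and 45.7 and 56.5 CPM later. SCD on CFSE day 1 held 254.9, 264.8, 811.9 and 763.8 CPM, a split between the same replicates as for MYLIP. With replicates 3 and 4 alone neither passed (-0.61 for RXRB and 1.42 for SCD, edgeR adjusted p = 0.26 and 0.20), and both did without DMSO day 1 replicate 4.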

How the results depend on the processing

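With few samples and few reads for ABCA1 and for ABCG1 in RKO, small differences could not be resolved, and 4 cultures per control group left calls that rest on single libraries. Of 1353 single-gene results under alternatives, 1194 were counted as unchanged. For a tested fold change this meant the same direction and side of the threshold, and for the test between lines the same side. An untested LRC difference counted as unchanged if it moved by less than the SD of its pairs, whatever its sign. Leaving out 1 replicate of 4 cannot move a difference that far. Those results were thus unchanged by construction, and the 1194 includes them. Of the tested results, 118 no longer passed, 20 passed anew and 21 changed sign, and the cause was not tested. Alternatives with replicate numbers 1 and 2 or 3 and 4 only, and those without SW48 or HT55 replicate 2, SW948 LRC replicate 4 or all 5 such libraries, were chosen after seeing the data.

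Of the pathway genes 21 passed between LRCs and non-LRCs, 4 at a log2 size of at least 0.5 and 12 without RKO, and leaving out replicates gave 12 to 23 (lowest without replicate 1 or 3). Over all genes the counts were 3803, then 627 and 2378, and 2243 to 4118. Between lines, 15512 genes passed, 10265 with 10 counts in every sample and 14471 to 15415 without 1 replicate, and 7 of the 7 genes in each alternative but the one with 10 counts in every sample, where 5 of the 7 passed and ABCG1 and ABCA1 were not tested. Positive line differences numbered 29 to 32 of 42 without 1 replicate.

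In unlabeled cells over time, 3695 genes and 1 of the 6 passed, 744 and 0 in only those 8 samples, 7915 and 5 with numbers 1 and 2, 0 and 0 with 3 and 4, and 963 to 6077 and 0 to 3 without 1 culture, most without DMSO day 1 replicate 4. In labeled cells 5706 and 2 passed, 1908 and 0 with 3 and 4, 1 of the 6 with numbers 1 and 2, without TMM, without a filter or with 10 counts in every sample, 0 in only those 8 samples, and 4216 to 5566 and 0 to 2 without 1 culture. For dye on day 1, 3162 and 2 passed, 6688 and 5 with 1 and 2, 677 and 0 with 3 and 4, 1 of the 6 without TMM, and 1358 to 3715 and 0 to 2 without 1 culture. On the later day 745 and 0 passed, 1521 by DESeq2, 4273 and 3 with 1 and 2, 2 with 3 and 4, and 0 to 812 and 0 to 0 without 1 culture. For dye by time 145 and 0 passed, 615 by DESeq2, 85 without TMM, 454 and 1 without a filter, 4739 and 3 with 1 and 2, 2 with 3 and 4, and 16 to 880 and 0 to 1 without 1 culture.

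Of the pathway genes in the controls, 15, 31, 22, 6 and 3 passed for time in unlabeled cells, time in labeled cells, dye on day 1, dye on the later day and dye by time. With numbers 1 and 2 these were 41, 41, 35, 23 and 31, with 3 and 4 they were 0, 10, 4, 0 and 0, and without DMSO day 1 replicate 4 they were 27, 15 and 6 where that library enters. Counts over all genes for the same replicate numbers are given above.

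With the replicate block, 26 pathway genes passed between LRCs and non-LRCs, 1511 genes on the later day, and 1 of the 6 genes for dye on day 1 and for time in labeled cells, where MYLIP was lost; no other call of the 6 changed.

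In the tested contrasts, signs turned as follows (log2). With numbers 3 and 4, ABCG1 was -0.88 for dye on day 1 and 0.52 for dye by time, MYLIP -0.73, 0.19 and (time, labeled) 0.61, NR1H3 0.043 and -0.32, and SREBF1 (time, unlabeled) 0.13. With 1 and 2, ABCG1 was -0.38, NR1H2 -0.12 and SREBF1 -0.13 for time in labeled cells, SREBF1 -0.013 there without TMM, and NR1H2 0.22 for dye on day 1. Without 1 culture, ABCG1 ran from -0.035 to 0.62 for dye on day 1 and from -0.12 to 0.47 for time in labeled cells, NR1H2 from -0.13 to 0.10 for dye on day 1, and NR1H3 from -0.034 to 0.19 for dye by time.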
